A study of Mus musculus with 23 samples.

Results

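The cell cycle and mitotic genes described here are the 9 genes Bub1, Cenpe, Kif11, Kif4, Top2a, Ect2, Fam83d, Stil and Cdc6, out of 524 transcript clusters to which the deposited tables give exactly 1 gene symbol and 65956 transcript clusters on the array in all. They were chosen by name, 1 cluster per gene. A symbol could be read only where a cluster stood in the authors' deposited tables of each knockout against WT, and those tables hold only clusters whose linear fold was 2.01 or more and whose unadjusted p-value did not exceed 0.05. Each gene therefore carries a name because of 1 such contrast. In the authors' deposited table of p110αδ DKO against WT HSC, Stil had a signed linear fold of -2.48, Kif4 of -2.22, Kif11 and Top2a of -2.21, Cenpe of -2.09 and Ect2 of -2.08. In the authors' deposited table of p110α-/- against WT HSC, Fam83d had -2.29 and Bub1 -2.04, and in the authors' deposited table of p110αδ DKO against WT LMPP, Cdc6 had 2.07. The smallest FDR p-value among these 9 entries of the authors' deposited tables was 0.589. For each gene that contrast is given below as a description, and nothing is read from it. No array of p110δ-/- cells entered the listing of any of the 9 genes.

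RNA had been measured in LMPP (lymphoid-primed multipotent progenitors) and HSC (haematopoietic stem cells) of the mouse, from marrow that was p110αδ DKO, p110α-/-, p110δ-/- or WT. Phosphoinositide 3-kinases of class I are enzymes with several alternative catalytic subunits, of which p110α and p110δ are 2. Both populations were lineage-negative and c-Kit-positive. LMPP were Flk2-positive, CD150-negative and CD48-positive, and HSC were Flk2-negative, CD150-positive and CD48-negative. The cells came from pooled recipients of bone marrow transplants, so donor cells had developed in a transplanted host. How the deletions were driven, and whether any donor cell escaped them, is not given in the sources used here. Each group had 3 arrays, 1 female and 2 male, except LMPP WT with 1 of each sex, which made 23 Affymetrix arrays, 11 of LMPP and 12 of HSC. Separate pools for the arrays of 1 group are not stated in the labels, so the p-values below measure a spread between samples that may be technical. Values are log2 RMA values, in which a difference of 1 is a doubling, and the number of arrays limits their precision. Replicate numbers only name the arrays.

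Cells copy their DNA in S phase and separate it in mitosis, and many proteins that do this are made in bursts, so that their transcripts mark cycling cells. Genes of the G1/S transition, Cdc6 among them, are driven by E2F factors, whereas late cell cycle genes are repressed in resting cells by the DREAM complex and activated later by B-MYB and FOXM1, through promoter elements called CHR (cell cycle genes homology region) and CCAAT boxes. HSC of adult marrow are mostly quiescent and progenitors such as LMPP divide more often. Phosphoinositide 3-kinase signals through AKT promote growth and entry into the cell cycle.

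The promoters of the 9 genes were read from RefSeq sequence of build GRCm38.p6, and stretches from 6 of them are shown because they carry the late cell cycle elements in different numbers or, for Cdc6, none of them. Capitals mark the CCAAT box, which reads ATTGG on the other strand, and the CHR letters TTTGAA, which read TTCAAA on the other strand, with TTTAAA counted as well. In Cdc6 they mark the E2F match GCGGGAA. All sequences run 5′ to 3′ along the gene's own strand. The stretch of Top2a is chr11:99024200-99024339 on the minus strand, that of Kif11 is chr19:37376232-37376381 on the plus strand and that of Fam83d is chr2:158767949-158768098 on the plus strand. The stretch of Bub1 is chr2:127831860-127832009 on the minus strand, that of Stil is chr4:114999968-115000107 on the plus strand and that of Cdc6 is chr11:98908001-98908030 on the plus strand.
Top2a: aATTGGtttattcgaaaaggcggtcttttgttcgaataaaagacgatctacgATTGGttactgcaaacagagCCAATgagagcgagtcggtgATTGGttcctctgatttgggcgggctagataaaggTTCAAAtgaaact
Kif11: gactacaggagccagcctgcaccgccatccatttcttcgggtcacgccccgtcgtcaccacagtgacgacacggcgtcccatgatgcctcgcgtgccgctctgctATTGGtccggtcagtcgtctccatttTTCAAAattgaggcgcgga
Fam83d: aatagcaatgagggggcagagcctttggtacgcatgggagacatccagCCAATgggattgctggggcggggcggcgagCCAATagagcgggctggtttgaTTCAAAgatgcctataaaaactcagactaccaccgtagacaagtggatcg
Bub1: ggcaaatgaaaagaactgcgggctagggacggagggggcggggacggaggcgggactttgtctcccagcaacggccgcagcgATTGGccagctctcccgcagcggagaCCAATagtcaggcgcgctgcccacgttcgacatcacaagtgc
Stil: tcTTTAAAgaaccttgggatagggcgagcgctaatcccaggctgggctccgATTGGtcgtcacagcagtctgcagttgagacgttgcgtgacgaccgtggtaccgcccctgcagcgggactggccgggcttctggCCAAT
Cdc6: ggccggtggagaGCGGGAAatcgcctgggg
The stretches of Top2a and Stil end 11 bases before the start site, and those of Kif11, Fam83d and Bub1 end 1 base before it. The Cdc6 stretch covers bases -150 to -121 from the only start site in the sequence table, which lies inside the span of the RefSeq gene, so an outer start of Cdc6 was not used here.

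In the 250 bases before the start site, searched on both strands, CCAAT stood in 8 of the 9 genes and in 35.4% of 21263 promoters of protein-coding genes. It occurred at least 2 times in 6 genes (Bub1, Kif4, Top2a, Ect2, Fam83d and Stil), against 11.4% of those promoters. Top2a alone held 6 matches within that window, the nearest at -58 from the start site. A CHR, searched as TTTGAA or TTTAAA, stood in 5 genes (Kif11, Top2a, Ect2, Fam83d and Stil) and in 23.1% of promoters. In Kif11 the CHR match began at -19, in Top2a at -23 and in Fam83d at -50. An E2F match was searched as TTCCCGC and also as TTCGCGC, then as TTGCCGC and also as TTGGCGC. It stood in Ect2 and Cdc6 and in 10% of promoters. In Ect2, which has 2 start sites in the table, the E2F match at -26 overlaps a CCAAT match. Cdc6 was the 1 gene with neither a CCAAT nor a CHR match in its window. These matches are descriptions of the letters and no binding was measured.

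LMPP were compared with HSC first, because the deposited tables had compared genotypes within a cell type and not the cell types. All 9 genes were higher in LMPP than in HSC when the 4 genotypes were averaged, and each passed limma's test with a Benjamini-Hochberg adjusted p below 0.05. Of all 32978 clusters tested, 10.5% were called higher in LMPP. The log2 differences of the 9 genes ran from 0.56 for Cdc6 to 2.21 for Ect2 with a median of 1.28, beside a median of -0.00 over all clusters tested. The adjusted p-values ran from 1.61e-06 to 0.0251. The comparison is not wholly free of the listing, since the HSC p110αδ DKO, HSC p110α-/- and WT arrays used to list the genes also enter it. The p110δ-/- arrays alone are free of it, and there all 9 differences were positive, from 0.31 to 2.31. Of these, 1 (Ect2) was called, where 1.67% of clusters were called higher. In WT arrays alone, 8 of 9 differences were positive and none passed, as given further below.

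Ect2, which activates RhoA to start the contractile ring of cytokinesis, had the largest difference of the 9 genes between the cell types. In LMPP it measured 11.02, 11.76 and 11.07 in p110αδ DKO, 11.77, 11.08 and 10.98 in p110α-/-, 11.34, 11.47 and 11.16 in p110δ-/-, and 11.26 and 9.91 in WT. In HSC it measured 8.10, 9.0 and 8.70 in p110αδ DKO, 7.12, 8.58 and 9.33 in p110α-/-, 8.38, 8.97 and 9.71 in p110δ-/-, and 9.91, 9.72 and 9.43 in WT. Every LMPP array lay above every HSC array, although LMPP WT replicate 2 and HSC WT replicate 1 share a value of 9.91 at this rounding. The difference was 2.21 (SE 0.24, adjusted p = 1.61e-06, limma), a linear fold of 4.62. Ect2 was called within p110αδ DKO (2.69, SE 0.47), p110α-/- (2.94, SE 0.47) and p110δ-/- (2.31, SE 0.47) cells, and it measured 0.90 (SE 0.52) within WT.

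Stil, which is needed to build the daughter centriole, was the other of the 2 genes whose LMPP arrays all lay above all HSC arrays, where 1.46% of clusters do so. In LMPP it measured 10.54, 10.65 and 10.01 in p110αδ DKO, 11.04, 10.27 and 10.30 in p110α-/-, 10.32, 10.01 and 10.35 in p110δ-/-, and 10.71 and 10.74 in WT. In HSC it measured 8.71, 8.49 and 8.43 in p110αδ DKO, 8.50, 8.99 and 9.70 in p110α-/-, 9.46, 8.70 and 9.58 in p110δ-/-, and 9.78, 9.79 and 9.71 in WT. The WT arrays of Stil agree closely within each cell type. The difference between LMPP and HSC was 1.32 (SE 0.15, adjusted p = 1.82e-06, limma).

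**Figure D1:**
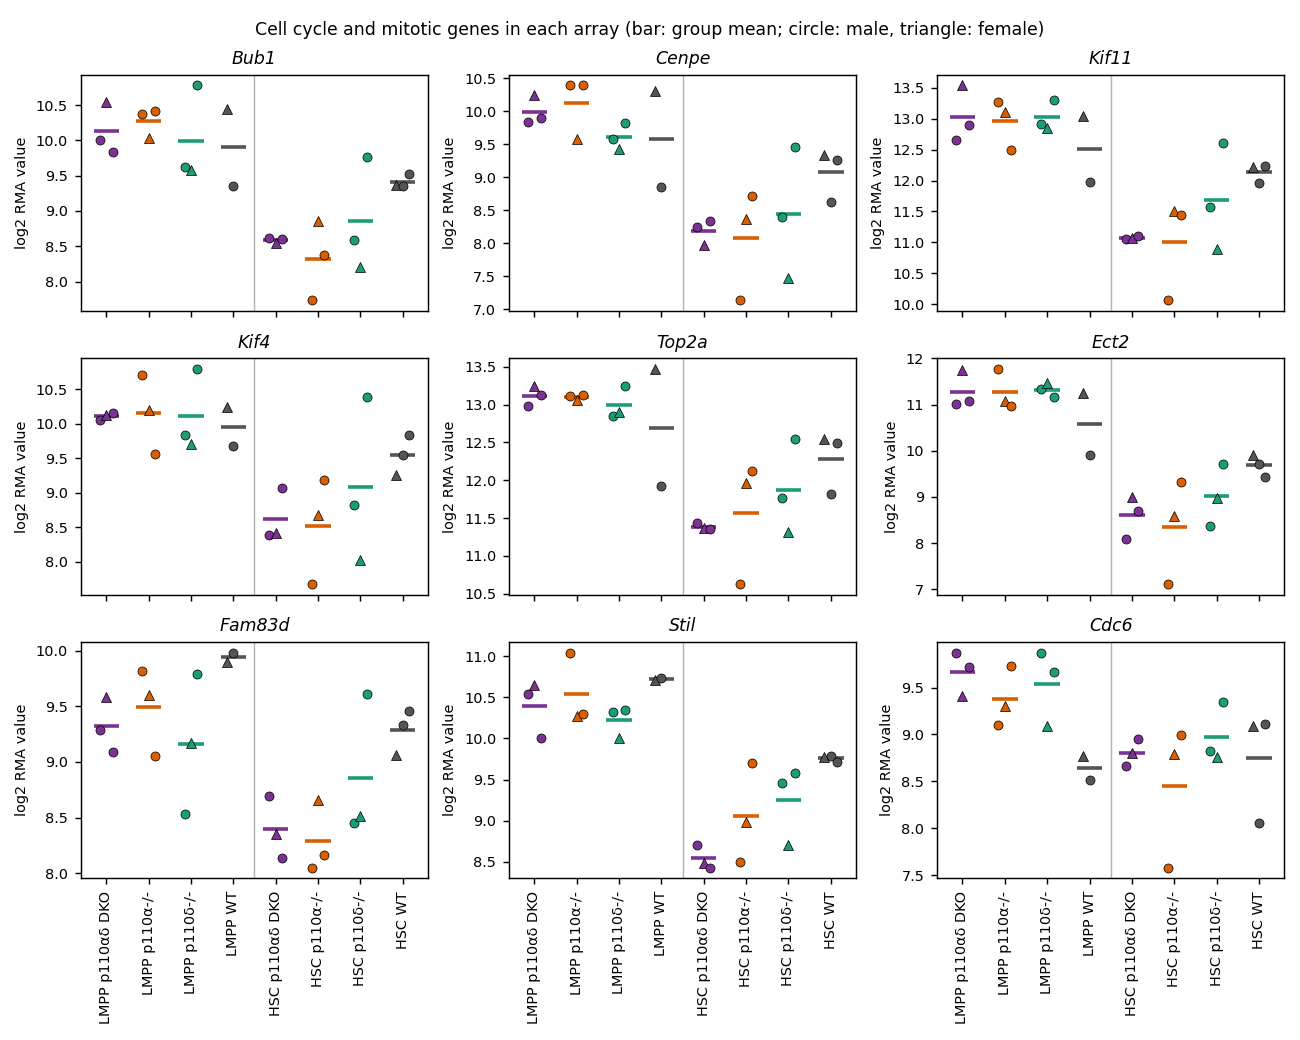
Each panel plots the log2 RMA value of 1 gene (vertical axis) in the 23 arrays, with the 4 LMPP groups left of the 4 HSC groups, circles for male and triangles for female samples, and a bar at the group mean. Ect2 and Stil show no overlap between LMPP and HSC, Cdc6 in LMPP WT lies at 8.77 and 8.51 below all other LMPP arrays, and the single HSC p110δ-/- array that stands high in many panels is replicate 3.

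The 4 spindle and kinetochore genes were all called higher in LMPP. Kif11, the kinesin that pushes spindle poles apart, measured 12.65, 13.54 and 12.90 in p110αδ DKO LMPP, 13.27, 13.11 and 12.49 in p110α-/- LMPP, 12.92, 12.85 and 13.31 in p110δ-/- LMPP, and 13.05 and 11.98 in WT LMPP. In HSC, Kif11 measured 11.06, 11.07 and 11.10 in p110αδ DKO, 10.07, 11.51 and 11.45 in p110α-/-, 11.57, 10.89 and 12.60 in p110δ-/-, and 12.22, 11.96 and 12.23 in WT. The lowest LMPP array of Kif11, WT replicate 2 at 11.98, lay among the HSC WT arrays. Its difference between LMPP and HSC was 1.40 (SE 0.21, adjusted p = 6.86e-05, limma). Cenpe, a kinesin that links kinetochores to microtubules, ranged in LMPP from 8.85 to 10.39 with a median of 9.84, and in HSC from 7.14 to 9.46 with a median of 8.38 (difference 1.38, SE 0.24). Bub1, a kinase of the spindle checkpoint, ranged in LMPP from 9.36 to 10.78 with a median of 10.04, and in HSC from 7.74 to 9.76 with a median of 8.61 (difference 1.28, SE 0.20). Kif4, a chromosome-bound kinesin that also works in the spindle midzone, ranged in LMPP from 9.56 to 10.79 with a median of 10.13, and in HSC from 7.68 to 10.38 with a median of 8.95 (difference 1.14, SE 0.25). For each of these 3 genes the ranges overlap, with HSC p110δ-/- replicate 3 the highest HSC array, and the medians are more than 1 log2 unit apart.

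Top2a, the topoisomerase that untangles replicated chromosomes, measured 12.98, 13.24 and 13.13 in p110αδ DKO LMPP, 13.11, 13.06 and 13.13 in p110α-/- LMPP, 12.85, 12.90 and 13.25 in p110δ-/- LMPP, and 13.47 and 11.92 in WT LMPP. In HSC it measured 11.44, 11.37 and 11.35 in p110αδ DKO, 10.63, 11.96 and 12.12 in p110α-/-, 11.77, 11.32 and 12.54 in p110δ-/-, and 12.55, 11.82 and 12.49 in WT. Both the highest and the lowest LMPP values of Top2a were WT arrays. Its difference between LMPP and HSC was 1.20 (SE 0.20, adjusted p = 0.000189, limma). Fam83d, which brings casein kinase to the spindle and helps to align chromosomes, ranged from 8.53 to 9.98 in LMPP and from 8.05 to 9.61 in HSC (difference 0.77, SE 0.16, adjusted p = 0.00187, limma).

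Cdc6, which loads the replicative helicase onto origins before S phase, had the smallest difference between the cell types, 0.56 (SE 0.17, adjusted p = 0.0251, limma). In LMPP it measured 9.87, 9.41 and 9.72 in p110αδ DKO, 9.10, 9.30 and 9.73 in p110α-/-, 9.87, 9.09 and 9.67 in p110δ-/-, and 8.77 and 8.51 in WT. In HSC it measured 8.66, 8.80 and 8.95 in p110αδ DKO, 7.58, 8.79 and 8.99 in p110α-/-, 8.82, 8.76 and 9.35 in p110δ-/-, and 9.09, 8.06 and 9.11 in WT. The LMPP WT arrays lay within the range of the HSC WT arrays. Within WT the difference between LMPP and HSC was -0.11 (SE 0.37, adjusted p = 0.873, limma), the only negative one of the 9 genes.

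Within a single genotype the count of genes called higher in LMPP varied. Since 8 of the 9 genes had been listed for low p110αδ DKO or p110α-/- arrays against WT in HSC, the choice itself raises the difference between LMPP and HSC in those 2 knockouts and lowers it in WT, and nothing is read from the order of the genotypes. In p110αδ DKO, 6 of 9 genes were called higher, where 3.09% of clusters were, and all 9 had every LMPP array above every HSC array, where 11.5% of clusters did. In p110α-/- cells 8 of 9 were called higher (3.78% of clusters) and again all 9 did not overlap (11.5% of clusters). In p110δ-/- cells 1 gene, Ect2, was called higher (1.67% of clusters) and 4 did not overlap (9.4% of clusters), namely Kif11, Top2a, Ect2 and Stil. In WT cells limma called 0 of 9, where 3.75% of clusters were called higher, with 1 gene (Stil) at an unadjusted p below 0.05, where 26.6% of clusters were, and 3 genes (Ect2, Fam83d and Stil) not overlapping, where 17% of clusters did not. The median difference of the 9 genes was 1.73 in p110αδ DKO, 1.64 in p110α-/-, 1.12 in p110δ-/- and 0.48 in WT. Whether these medians differ is bound to the tests of the knockout effects between cell types, which called 0 of 9 genes and are given below. Without HSC p110δ-/- replicate 3, the count called in p110δ-/- cells was 7 (2.9% of clusters). Without HSC p110α-/- replicate 1 the count in p110α-/- cells was 4 (2.76% of clusters).

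**Figure D2:**
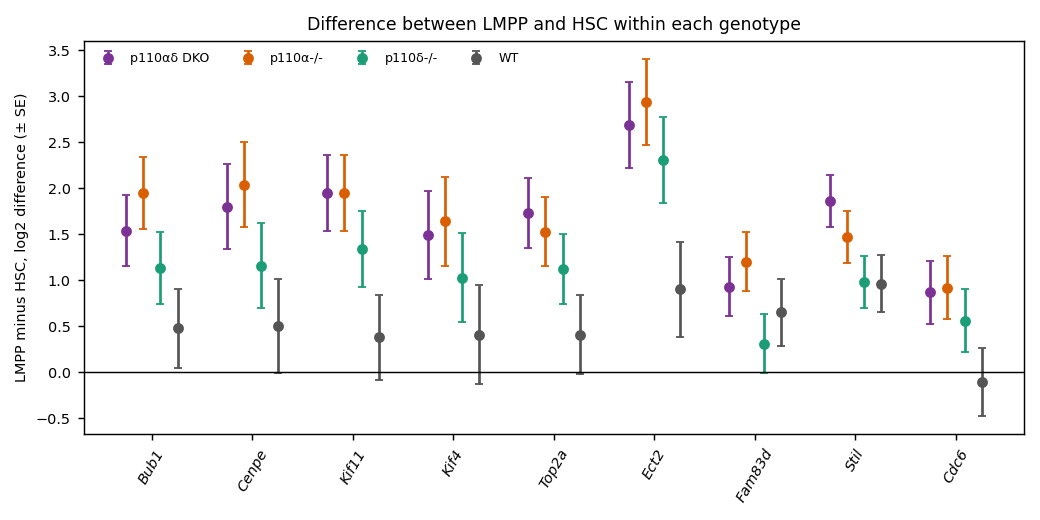
The vertical axis is the log2 difference LMPP minus HSC with its SE from the fit of all 8 groups, for each of the 9 genes and each genotype. The WT points lie between -0.11 and 0.96, and the points of Ect2 in the knockouts lie between 2.31 and 2.94.

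Named markers of other cell types also differed between LMPP and HSC. A marker could be named only from the deposited tables of knockout against WT, so nothing is read from the counts below. Of all 32978 clusters tested, 7694 were called in either direction, 3468 of them (10.5% of clusters) higher in LMPP. Of 25 granulocyte and monocyte markers 17 were named and 16 tested, and all 16 were called higher in LMPP. Their summed level, the log2 of the sum of the linear values, ranged in LMPP from 16.46 to 19.19 in p110αδ DKO, from 18.15 to 20.24 in p110α-/-, from 13.91 to 16.92 in p110δ-/- and from 19.00 to 20.05 in WT. In HSC it ranged from 10.40 to 14.96 in p110αδ DKO, from 10.36 to 13.22 in p110α-/-, from 10.49 to 14.06 in p110δ-/- and from 12.36 to 14.41 in WT. The 4 named HSC identity markers of 16 (Vwf, Tek, Selp and Ndrg2) were all called lower in LMPP, and the 3 named mast cell, basophil and eosinophil markers of 13 were called higher. Of 26 lymphoid and plasma cell markers 1 was named and called higher in LMPP, and of 24 erythroid and megakaryocyte markers 0 were named. The part of these cells in the differences of the 9 genes was not tested. In bulk samples such as these, fewer cells that express a gene and less RNA per cell cannot be told apart.

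In HSC the knockouts were set against WT. No gene of the 9 was called in p110αδ DKO, p110α-/- or p110δ-/- HSC with limma and Benjamini-Hochberg adjustment over all clusters, where 0.0091%, 0% and 0.0091% of clusters were called. At an unadjusted p below 0.05 there were 5, 5 and 0 of the 9 genes, where 8.44%, 2.79% and 8.37% of clusters were. The p110αδ DKO contrast had itself listed 6 of the genes by an unadjusted p, and the p110α-/- contrast 2, against these WT arrays. Nothing is therefore read from these counts or from the medians below. The knockouts share the same WT arrays, so their values are given side by side only. The median log2 difference of the 9 genes was -0.90 in p110αδ DKO, -1.00 in p110α-/- and -0.47 in p110δ-/- HSC, beside medians over all clusters of 0.05, 0.03 and 0.03.

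For p110αδ DKO against WT HSC, all 3 knockout arrays lay below all 3 WT arrays for 8 of 9 genes, where 5.12% of clusters do. This contrast had listed 6 of the 8, and Bub1 and Fam83d had been listed by a contrast with the same WT arrays, so nothing is read from the count. Stil differed by -1.22 (SE 0.29, adjusted p = 0.299, limma), Ect2 by -1.09 (SE 0.51) and Kif11 by -1.06 (SE 0.43). Kif4 differed by -0.92 (SE 0.54), Top2a and Fam83d by -0.90 (SE 0.40 and 0.30), Cenpe by -0.89 (SE 0.49) and Bub1 by -0.83 (SE 0.36). Cdc6 was the exception at 0.05 (SE 0.38), with its p110αδ DKO arrays inside the range of the WT arrays. The spread of the p110αδ DKO arrays varied with the gene, from an SD of 0.02 for Kif11 to 0.46 for Ect2 (n = 3), beside 0.15 and 0.24 in WT. Bub1 measured 8.62, 8.54 and 8.60 in p110αδ DKO HSC, against 9.37, 9.35 and 9.52 in WT HSC.

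For p110α-/- against WT HSC, which had listed Bub1 and Fam83d, the knockout arrays lay below the WT arrays for 6 of 9 genes (Bub1, Kif11, Kif4, Ect2, Fam83d and Stil), where 3.14% of clusters do. The other 4 of these had been listed against the same WT arrays, so nothing is read from this count either. Bub1 measured 7.74, 8.86 and 8.37 in p110α-/- HSC, against 9.37, 9.35 and 9.52 in WT HSC (difference -1.09, SE 0.36). Fam83d measured 8.05, 8.66 and 8.16 in p110α-/- HSC, against 9.06, 9.33 and 9.46 in WT HSC (difference -1.00, SE 0.30). Both genes had all knockout arrays below the WT range. Ect2, not listed from this contrast, differed by -1.34 (SE 0.51), Kif11 by -1.12 (SE 0.43) and Stil by -0.70 (SE 0.29). Every adjusted p was 1.000. Replicate 1 was the lowest of the 3 p110α-/- arrays for all 9 genes, and without it the difference of Ect2 was -0.73, of Kif11 -0.65, of Top2a -0.25 in place of -0.72, and of Cdc6 0.14 in place of -0.30.

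For p110δ-/- against WT HSC, the p110δ-/- arrays took no part in the listing, but the 3 WT arrays had listed 8 of the 9 genes, so the signs are not independent of it. Of the 9 differences 8 were negative, from -0.67 for Ect2 to -0.41 for Top2a, and Cdc6 was at 0.23 (SE 0.38). Only Stil had all knockout arrays below the WT arrays, where 4.11% of clusters do, at 9.46, 8.70 and 9.58 in p110δ-/- HSC, against 9.78, 9.79 and 9.71 in WT HSC (difference -0.51, SE 0.29, adjusted p = 0.679, limma). The arrays of this group were spread widely. Kif4 measured 8.82, 8.03 and 10.38 in p110δ-/- HSC, against 9.26, 9.54 and 9.83 in WT HSC, so that 2 of the knockout arrays lay below the WT range and 1 above it. Cenpe showed the same spread, with 8.40, 7.48 and 9.46 in p110δ-/- HSC, against 9.34, 8.63 and 9.26 in WT HSC. Replicate 3 was the highest of the group for all 9 genes. Without it, the difference of Kif4 was -1.12, of Cenpe -1.14, of Bub1 -1.01 and of Kif11 -0.90, and still 0 genes were called.

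The knockouts were also set against each other. These contrasts leave out WT, but the p110αδ DKO and p110α-/- arrays in them had been used to list genes, so they are given as values. In HSC the differences of p110αδ DKO from p110α-/- ran from -0.52 to 0.35, those of p110αδ DKO from p110δ-/- from -0.71 to -0.18, and those of p110δ-/- from p110α-/- from 0.19 to 0.68. None of the 9 genes was called in any of these, where limma called 0.0121%, 0% and 0.00303% of clusters, and 1 gene of the 9 had an unadjusted p below 0.05 (p110αδ DKO against p110δ-/-), where 5.48%, 3.07% and 7.6% of clusters did. The interaction of the 2 deletions in HSC, p110αδ DKO minus p110α-/- minus p110δ-/- plus WT, had a median of 0.53 over the 9 genes and was called by limma for none, at adjusted p = 1.000 for each. No gene had an unadjusted p below 0.05 (0 of 9), where 2.05% of clusters did. Of its 4 groups all but p110δ-/- had been used to list 8 of the 9 genes, so nothing is read from that median.

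In LMPP, too, no gene of the 9 was called against WT by limma. The median difference was 0.41 in p110αδ DKO, 0.40 in p110α-/- and 0.15 in p110δ-/- LMPP, beside 0.05, 0.04 and 0.07 over all clusters, of which 0%, 0% and 0.388% were called. In each of these contrasts 1 of the 9 genes, Cdc6, had an unadjusted p below 0.05, where 14.2%, 8.73% and 12.2% of clusters did. In each knockout 7 of the 9 differences were positive and 2, those of Fam83d and Stil, were negative. Cdc6, listed from p110αδ DKO against these same WT arrays, had every array of every knockout above both WT arrays, where 14.7%, 12% and 15.2% of clusters do. Its differences were 1.03 (SE 0.27) in p110αδ DKO, 0.73 (SE 0.27) in p110α-/- and 0.90 (SE 0.27) in p110δ-/- LMPP, with adjusted p-values of 0.296, 0.553 and 0.294 (limma). Fam83d measured 9.29, 9.58 and 9.09 in p110αδ DKO LMPP, 9.82, 9.60 and 9.05 in p110α-/- LMPP and 8.53, 9.17 and 9.79 in p110δ-/- LMPP, against 9.90 and 9.98 in WT LMPP. Every knockout array of Fam83d lay below both WT arrays, where 12.4%, 10.1% and 8.97% of clusters do, and its differences were -0.62 (SE 0.35), -0.45 (SE 0.35) and -0.77 (SE 0.35).

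These LMPP contrasts rest on 2 WT arrays that differ. Replicate 2 had the highest array median of all 23, 5.29 against 4.83 to 5.04 for the others, and a mean correlation of 0.961 with the other LMPP arrays, against 0.98 to 0.986 for the rest of LMPP. It was the lower of the 2 WT arrays for 7 of the 9 genes, Top2a among them at 11.92 beside 13.47 in replicate 1, and the higher for Fam83d and Stil. With replicate 2 as the lone WT array, limma called 2 genes in p110αδ DKO LMPP (Top2a at 1.20 and Ect2 at 1.38), 3 in p110α-/- LMPP (Cenpe, Top2a and Ect2) and 2 in p110δ-/- LMPP (Top2a and Ect2). In the same fits 16.6%, 13.5% and 15.2% of all clusters were called. With replicate 1 as the lone WT array it called none of the 9. The knockouts set against each other in LMPP gave differences between -0.51 and 0.39 and no call by limma, where 0.00606%, 0% and 0.418% of clusters were called for p110αδ DKO against p110α-/-, p110αδ DKO against p110δ-/- and p110δ-/- against p110α-/-. At an unadjusted p below 0.05 there were 0 of the 9 genes, where 5.35%, 3.7% and 5.75% of clusters were. In the same cells the interaction was called for none, with a smallest adjusted p of 0.860 (limma), and 0 genes had an unadjusted p below 0.05, where 5.34% of clusters did.

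**Figure D3:**
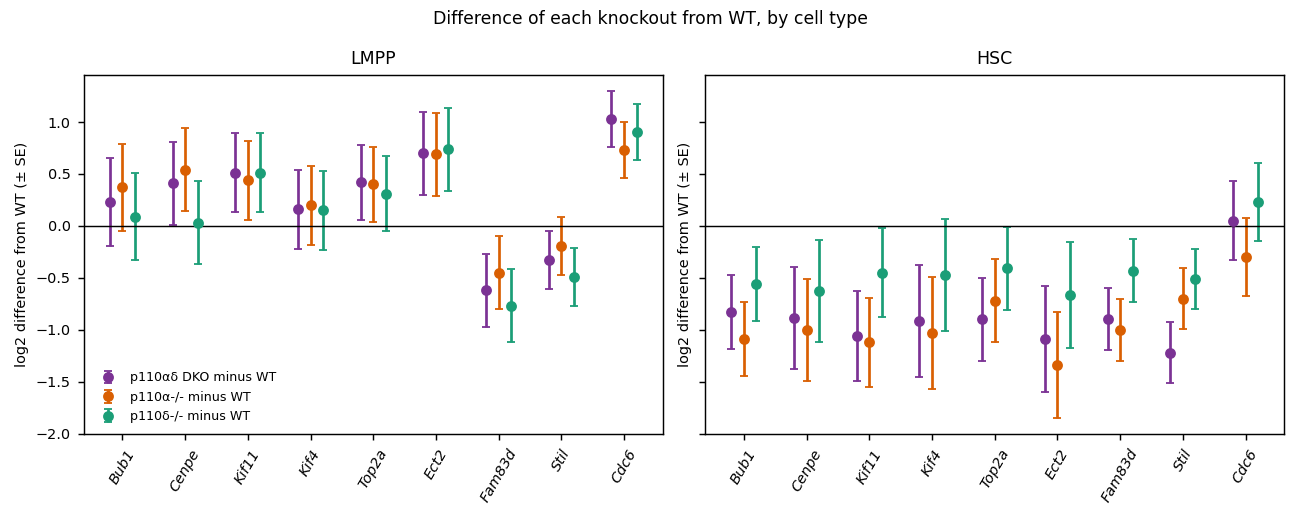
The log2 difference of each knockout from WT is plotted with its SE for the 9 genes, LMPP in the left panel and HSC in the right. In HSC all points of the 8 genes other than Cdc6 lie below 0, from -1.34 to -0.41. In LMPP the points of these genes lie on both sides of 0. The LMPP SEs reach 0 for Bub1 and Kif4 in every knockout and for Ect2, Kif11 and Fam83d in none. No difference in either panel was called.

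Whether a knockout's difference from WT was unequal in LMPP and in HSC was tested as the difference of the 2 log2 differences. The HSC arrays of p110αδ DKO, p110α-/- and WT had listed 8 of the 9 genes as lower in the knockout, and the LMPP arrays of p110αδ DKO and WT had listed Cdc6 as higher. That choice favours a positive sign, so nothing is read from the signs, the medians or the counts at an unadjusted p. For p110αδ DKO it was positive for all 9 genes, with a median of 1.08 and adjusted p-values from 0.313 to 0.808. For p110α-/- it was positive for all 9 with a median of 1.23 and adjusted p-values from 0.446 to 0.652, and for p110δ-/- the median was 0.65 with adjusted p-values from 0.612 to 0.994. Limma called 0 of 9 genes in each, where 0.0152%, 0% and 0.0121% of clusters were called. At an unadjusted p below 0.05 there were 4, 4 and 0 of the 9 genes, where 13.9%, 10.8% and 8.04% of clusters were. The F test over the 3 knockouts called none either, with adjusted p-values from 0.721 to 0.829 and 1 gene at an unadjusted p below 0.05, where 6.89% of clusters were. Such unequal knockout effects were thus not detectable with these arrays.

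The 8 genes other than Cdc6 tended to move together from array to array, less closely in LMPP than in HSC, a difference that was not tested. Their mean after centring each gene on its own mean over the 23 arrays was 0.75 ± 0.25 in p110αδ DKO LMPP, 0.82 ± 0.28 in p110α-/- LMPP and 0.63 ± 0.30 in p110δ-/- LMPP (SD, n = 3 each), and 0.57 ± 0.62 in WT LMPP (SD, n = 2). In HSC it was -1.00 ± 0.04 in p110αδ DKO, -1.02 ± 0.68 in p110α-/-, -0.54 ± 0.74 in p110δ-/- and -0.02 ± 0.12 in WT (SD, n = 3 each). That WT is the highest of these in HSC is what the listing favours. The single arrays of the 2 widely spread HSC groups were -1.81, -0.72 and -0.54 in p110α-/- and -0.74, -1.16 and 0.28 in p110δ-/-. The p110δ-/- array at 0.28 was above every HSC WT array, and the p110α-/- array at -1.81 was the lowest of all 23. Array medians of these 2 arrays were 4.88 and 4.90, within the range of the other arrays. The summed granulocyte and monocyte markers were 12.12 in the first and 10.36 in the second. HSC p110αδ DKO replicate 2 had the highest such sum among HSC, 14.96, and its 8-gene mean was -1.02, beside -1.02 and -0.95 in the other arrays of its group.

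Over the 23 arrays Pearson's r between pairs of these 8 genes ran from 0.68 to 0.97 with a median of 0.88 over 28 pairs. The arrays share the cell type difference, and after each group's mean was taken off, r ran from 0.28 to 0.92 with a median of 0.68. Pairs with Cdc6 had a median of 0.68 over the 23 arrays and 0.46 after the group means were taken off. In LMPP alone the deviations of Cdc6 had r from -0.53 to 0.24 with the other 8 (median -0.15), and in HSC alone from 0.34 to 0.92 (median 0.69). Among the other 8, r ran from 0.04 to 0.86 in LMPP (median 0.52) and from 0.33 to 0.96 in HSC (median 0.76). The HSC deviations include p110α-/- replicate 1, lowest in its group for all 9 genes, and p110δ-/- replicate 3, highest for all 9. How far r in HSC rests on those arrays was not tested. All of these are descriptions over 23 arrays, whose RNA and processing the genes share.

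**Figure D4:**
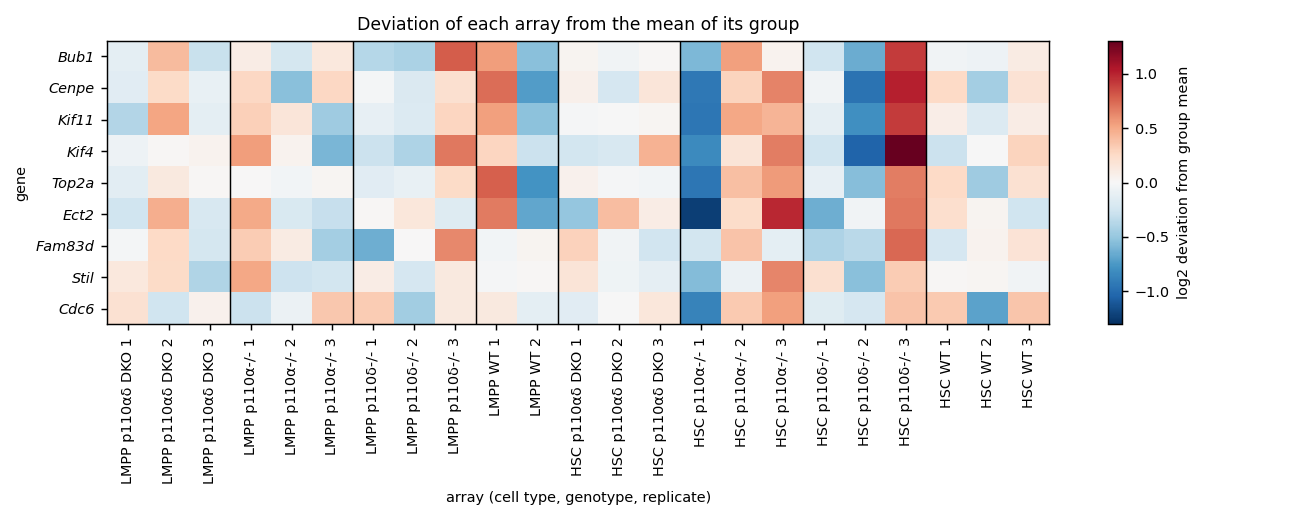
Colour gives the log2 deviation of each array (columns, by group and replicate) from the mean of its group for each of the 9 genes (rows), red above and blue below. HSC p110α-/- replicate 1 is blue and HSC p110δ-/- replicate 3 red for all 9 genes, and the p110αδ DKO columns of HSC are pale for most genes.

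Among 476 other clusters that were tested and carry exactly 1 symbol, those most like the mean of the 9 genes over the 23 arrays were Kif22 (r = 0.97), Aspm (0.95), Prr11 (0.94), Ska3 (0.87) and H2afx (0.87). After the group means were taken off they were Kif22 (r = 0.95), Aspm (0.83), Ska3 (0.79), Prr11 (0.77) and Zfp938 (0.75). Kif22 is a chromosome-bound kinesin, Aspm acts at spindle poles, Ska3 belongs to a complex that couples kinetochores to microtubules, and H2afx encodes a histone variant of DNA repair.

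Other cell cycle genes were counted from lists. Of 118 other genes of the G2 and M phases 4 were named, Kif22, Prr11, Ska3 and Aspm. All 4 were called higher in LMPP, where 10.5% of clusters were, at 1.41, 2.09, 0.89 and 1.13 (adjusted p from 1.19e-05 to 0.00307, limma). Their names, like all others here, come from the deposited tables of knockout against WT, so their knockout values are given with nothing read from them. Their differences in HSC were all negative, from -1.15 to -0.88 in p110αδ DKO, from -1.06 to -0.52 in p110α-/- and from -0.69 to -0.32 in p110δ-/-, and none was called. Kif22 followed the array pattern described above, with 7.81, 9.47 and 9.74 in p110α-/- HSC and 8.78, 8.82 and 11.21 in p110δ-/- HSC, against 10.28, 9.70 and 10.23 in WT HSC. Of 111 other G1/S and S phase genes 0 were named, so Cdc6 stands alone for that phase. Of 53 centrosome and centriole genes 1 was named, Haus4, at 0.49 between LMPP and HSC (adjusted p = 0.106, limma). Of 26 growth and proliferation signal genes 6 were named, of which 0 were called higher and 4 lower in LMPP. Among all 32978 clusters tested, 7694 were called in either direction, 3468 of them higher in LMPP.

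Of 47 cell cycle inhibitor and quiescence genes 9 were named, and 2 were called higher and 3 lower in LMPP. Beside them, 7694 of 32978 clusters were called in either direction, 3468 of them higher. Pmaip1, a pro-apoptotic p53 target, was higher by 1.62 and Nr4a1, an orphan nuclear receptor, lower at -1.01. In HSC Pmaip1 ranged from 4.26 to 5.43, near the log2 4.95 cut used to choose clusters for testing. Its LMPP means ran from 5.31 in p110δ-/- to 6.92 in p110α-/-. Klf4, a transcription factor that restrains proliferation in several tissues, was lower at -1.02 and Rb1, the retinoblastoma protein that holds E2F factors back, was lower at -0.93 (adjusted p from 4.6e-06 to 0.0214 for these 4, limma). Group means of Rb1 in LMPP and HSC were 6.95 and 7.06 in p110αδ DKO and 6.24 and 6.72 in p110δ-/-. They were 5.30 and 6.88 in p110α-/- and 5.54 and 7.07 in WT, so the averaged difference came mainly from p110α-/- and WT. The lowest p110α-/- LMPP array of Rb1 stood at 3.54, below the log2 4.95 cut. The fifth called gene was Gadd45a at 0.47. In HSC none of the 9 was called against WT, with median differences of -0.80 in p110αδ DKO, -0.47 in p110α-/- and -0.73 in p110δ-/-. In LMPP none was called either, with medians of -1.18, -0.24 and -1.32.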

How the data were processed

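RNA of 23 samples had been hybridised to Affymetrix Mouse Transcriptome Assay arrays, and the deposited table holds log2 RMA values, which the authors computed in Expression Console for each transcript cluster, per the labels. The 6 comparison tables deposited by the authors hold, per the file headers, log2 bi-weight averages, a signed linear fold (a score whose sign gives the direction), a p-value and an FDR p-value. Tool versions, genome build and annotation release were not given in the sources used here. Of 72688 rows 6732 controls were left out, and clusters whose mean was at or above the median of cluster means (log2 4.95) were tested, 32978 of 65956, all 9 genes among them.

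A separate fit per cell type, with 1 mean per genotype, was made in limma 3.58.1 (lmFit, eBayes) under R 4.3.3, and LMPP and HSC were compared in 1 fit of the 8 groups. P-values were adjusted over all tested clusters (Benjamini-Hochberg), with calls made below 0.05. The script recovered the size of known changes when tested on simulated data. Those changes were larger than any difference of a knockout from WT among the 9 genes, so the check does not cover differences of that size. The genes and the 10 other gene lists were chosen with earlier results of these data known. All 9 genes are named, up to 4 genes of each cell cycle list by smallest p for LMPP against HSC, and the 5 genes most like the mean of the 9. In the authors' deposited table for p110α-/- LMPP, 82.9% of knockout averages lay within the range of the arrays labelled so, against 100.0% in the other tables. No gene of the 9 was listed there. Names came only from those tables, so Pik3ca and Pik3cd were not analysed here and the deletions were not checked. Promoters came from RefSeq, build GRCm38.p6, with all 9 genes matched by symbol. Summaries and figures used matplotlib 3.10.9, numpy 2.4.6 and pandas 2.3.3 under Python 3.11.15. Other filters, scalings, variance models, array weights, sex as a covariate and leaving out each array were tried.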

Additional observations from a re-analysis of the deposited data

How the results depend on the processing

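No paired analysis was possible because the labels give no replicate numbers and name no animal or pool that links an LMPP array to an HSC array, and the numbers used here follow accession order. Of 569 alternative counts of the 9 genes called, over 23 comparisons, 551 stayed within 1.5 times the count given above and 18 did not. Most of the 23 comparisons had a count of 0, so most of the 551 are counts of 0 that stayed at 0. The tally therefore says little of how stable the calls are. In HSC the counts against WT and between knockouts were 0 under every alternative run. With the WT arrays alone, LMPP against HSC called 0 of the 9 genes in place of 9, and Cdc6 turned to -0.11 (adjusted p = 0.896, limma). That alternative holds 5 arrays and is the contrast within WT, not an average over genotypes, and the cause was not tested. With only the groups compared the count in p110α-/- cells was 2 in place of 8, with array weights the count in p110δ-/- cells was 7 in place of 1, and with quantile normalisation again the count in WT cells was 1 in place of 0. The cause was not tested.

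Leaving out each array in turn kept 9 of 9 genes called for LMPP against HSC. The counts within genotypes ran from 4 to 8 in p110αδ DKO, from 4 to 8 in p110α-/-, from 1 to 7 in p110δ-/- and from 0 to 1 in WT. In LMPP against WT they ran from 0 to 2 in p110αδ DKO, from 0 to 3 in p110α-/- and from 0 to 2 in p110δ-/-, and for the difference between cell types from 0 to 3 in p110αδ DKO and from 0 to 3 in p110α-/-. The highest values of the LMPP and difference counts came without LMPP WT replicate 1, where the lone WT array is assumed to vary like the other groups. The count of 4 in p110αδ DKO came without LMPP p110αδ DKO replicate 2. In p110α-/- it was 5 without LMPP p110α-/- replicate 1. In p110δ-/- it was 3 without HSC p110α-/- replicate 1 and 2 without LMPP p110α-/- replicate 1 or HSC p110α-/- replicate 3.

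Calls over all clusters moved more. When each array was left out in turn, LMPP against HSC averaged over genotypes gave from 6708 to 9944 in place of 7694. The WT arrays alone gave 226, which is the contrast within WT and not that average. Over all alternatives, LMPP against HSC gave from 1257 to 3192 in place of 2186 in p110αδ DKO. It gave from 1412 to 3280 in place of 2302 in p110α-/- and from 734 to 4179 in place of 1371 in p110δ-/-. The lows of 1257 and 734 came with a filter at the 75th percentile of cluster means. Fewer clusters are tested there, so these lows are not comparable as counts and do not show a smaller share called. Within WT it gave from 226 to 8422 in place of 2789. LMPP against WT gave up to 5472, 4454 and 5008, in place of 0, 0 and 128, without LMPP WT replicate 1. The alternative with only the groups compared could not be applied to interactions or to differences between cell types.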

Other observations

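Cdkn1a, which encodes the cyclin-dependent kinase inhibitor p21, was singled out after its values were seen. It measured 10.20, 10.32 and 9.41 in p110αδ DKO HSC, 13.09, 10.80 and 10.65 in p110α-/- HSC and 10.57, 10.25 and 9.29 in p110δ-/- HSC, against 11.75, 13.38 and 10.45 in WT HSC. In LMPP it measured 10.10, 10.60 and 9.83 in p110αδ DKO, from 10.86 to 13.12 in p110α-/- and 10.02, 10.46 and 9.73 in p110δ-/-, against 11.45 and 13.02 in WT. In LMPP all p110αδ DKO and p110δ-/- arrays lay below both WT arrays, where 12.4% and 8.97% of clusters do. In HSC the p110αδ DKO arrays lay below all WT arrays, where 5.12% of clusters do. The p110δ-/- HSC arrays overlapped the lowest WT array, and the p110α-/- arrays overlapped WT in both cell types. Cdkn1a, too, could be named only from a deposited table of knockout against WT. Nothing is therefore read from these positions or from the differences that follow. The differences from WT in LMPP were -2.05 (SE 0.63) in p110αδ DKO and -2.16 (SE 0.63) in p110δ-/-, with adjusted p-values of 0.296 and 0.276 (limma). Its highest values within a group stood in HSC p110α-/- replicate 1, HSC WT replicate 2 and LMPP WT replicate 2, which were also the arrays with the lowest 8-gene means of their groups, at -1.81, -0.15 and 0.13. In HSC p110δ-/-, replicate 3 had the lowest Cdkn1a and the highest 8-gene mean. Not every group ran this way: LMPP p110α-/- replicate 1 and LMPP p110αδ DKO replicate 2 had both the highest Cdkn1a and the highest 8-gene mean of their groups, the means being 1.14 and 1.04. After the group means were taken off, r between Cdkn1a and the mean of the 9 genes was -0.56 over 23 arrays, a description with no test.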
